A study of Mus musculus with 14 samples.

Results

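Chromatin accessibility was described at the ends of the genes for cytosolic ribosomal proteins, the protein subunits of the ribosomes that translate nuclear-encoded mRNA. The members are the regions of the deposited table, on mouse build mm10, that lay within 1 kb of either RefSeq bound of a protein-coding gene named Rpl or Rps followed by a digit, or of Rplp0, Rplp1, Rplp2 or Rpsa, and whose mean deposited signal over all libraries was at least 50. The Rps6k kinase genes, Rps19bp1 and pseudogenes were left out. Of 705361 regions in the table, 59189 reached that mean, and 117 of these were members. They lay at 80 of 88 such genes, 31 of 34 for the small subunit and 49 of 54 for the large subunit and its stalk. The genes with no region at that level were Rps2, Rpl17, Rpl10l, Rpl32l, Rpl37rt, Rpl39l, Rps23rg1 and Rps27rt. The members nearest the threshold from above were regions at Rps9, Rpl13 and Rpl13a, with means of 50.4, 50.8 and 50.9, and the nearest below were at Rpl26, Rps16 and Rpl37rt, with means of 49.5, 49.4 and 48.2.

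The libraries were made by ATAC-seq, in which a transposase cuts accessible DNA, from long-term haematopoietic stem cells (LT-HSC) and from MPP3 cells, multipotent progenitors with a myeloid bias, with 7 libraries each. Donors were C57BL/6J mice of genotype Npm1-frt/+ (called Npm1 here), Dnmt3a-flR878H/+ (Dnmt3a), Dnmt3a-flR878H/+;Npm1-frt/+ (Dnmt3a;Npm1) or WT (Mx-Cre). In the library titles the Npm1 allele is written Npm1c. The marrow of young donors, 1000000 whole bone marrow cells per transplant, went into young, lethally irradiated CD45.1 recipients. All recipients, those of WT marrow included, received poly(I:C) after 4 weeks, which induces the interferon-responsive promoter of Mx-Cre, then tamoxifen 4 weeks later, and marrow was harvested after a further 4 weeks. The cells thus came from transplanted marrow after 2 induction treatments, and the labels do not give the recombinase that tamoxifen activates or the number of animals behind a library. LT-HSC Dnmt3a and MPP3 Dnmt3a;Npm1 had 1 library each and the other 6 groups had 2. Nothing in the labels says that libraries A and B came from separate animals, so a p-value here reflects how far libraries of a group scatter, and that scatter may be technical.

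A ribosome joins a small subunit, which reads the mRNA, to a large subunit, which forms the peptide bond, and the acidic proteins Rplp0, Rplp1 and Rplp2 form the stalk that recruits translation factors to the large subunit. Ribosomal protein genes are transcribed at high rates in nearly all cells from TATA-poor promoters, and their mRNAs usually begin with a run of pyrimidines through which growth signals control their translation. Loss of 1 copy of some of them, RPS19 above all, causes Diamond-Blackfan anaemia in humans. Npm1 encodes nucleophosmin, a nucleolar protein that takes part in ribosome assembly, and Dnmt3a encodes a DNA methyltransferase.

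Promoter sequences are printed for 6 members whose accessibility results are given below. These 6 are a selection from the 11 members that hold an annotated start and were called lower in Npm1 than in WT LT-HSCs. The sequences are from RefSeq, build GRCm38.p6, and run from 80 bases before the start through the first 20 bases of the transcript. Capitals mark the longest run of C and T that overlaps the 10 bases on either side of the start. The intervals are chr5:115559387-115559486 on the + strand for Rplp0, chr7:141447571-141447670 on the + strand for Rplp2, chr7:24884512-24884611 on the + strand for the most upstream Rps19 start, chr14:18270967-18271066 on the - strand for Rpl15, chr7:45128726-45128825 on the - strand for Rpl13a and chr10:128549149-128549248 on the - strand for Rpl41.
Rplp0: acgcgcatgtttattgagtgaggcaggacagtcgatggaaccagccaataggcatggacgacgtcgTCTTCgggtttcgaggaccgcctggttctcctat
Rplp2: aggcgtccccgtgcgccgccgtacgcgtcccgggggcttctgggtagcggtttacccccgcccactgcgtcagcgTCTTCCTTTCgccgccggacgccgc
Rps19: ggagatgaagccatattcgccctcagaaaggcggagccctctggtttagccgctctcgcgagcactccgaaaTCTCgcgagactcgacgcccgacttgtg
Rpl15: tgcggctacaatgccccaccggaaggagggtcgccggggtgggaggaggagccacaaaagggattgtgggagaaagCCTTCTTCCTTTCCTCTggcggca
Rpl13a: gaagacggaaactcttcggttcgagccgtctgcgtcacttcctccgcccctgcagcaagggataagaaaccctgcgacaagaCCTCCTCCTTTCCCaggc
Rpl41: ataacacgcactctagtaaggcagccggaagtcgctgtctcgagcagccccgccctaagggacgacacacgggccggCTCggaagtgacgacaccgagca
The run was 17 bases long at Rpl15, 14 at Rpl13a and 10 at Rplp2, but 5 at Rplp0, 4 at Rps19 and 3 at Rpl41. At Rpl36al and Rpl7l1, which were also called but are not printed, it was 5 and 2. Other annotated Rps19 starts had runs of 4 and 7, so the length depends on the annotated start used.

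Letters were then sought at 80 annotated starts of 68 of the 88 genes, in windows from 250 bases before the start to 50 after it. Each promoter was scored as holding the letters or not. The pyrimidine run was sought on the strand of the transcript only, and the other letters on both strands. A pyrimidine run of at least 8 bases at the start was found in 40.0% of ribosomal protein promoters and in 13.7% of all 32851 promoters of the table. CCGGAA, the core bound by ETS factors, was found in 46.2% of ribosomal protein promoters and 14.9% of all. Open promoters can differ from all promoters in such letters. The 71 ribosomal protein starts inside a tested region were therefore also set beside 15446 other starts inside one. CCGGAA was in 49.3% of the ribosomal protein starts and 25.5% of the others, and the pyrimidine run in 42.3% and 13.3%. Those other starts had CCGGAA more often than all promoters did, but not the pyrimidine run. AAGATGG, a YY1 core, was in 15.5% and 6.6%, and TATAAA in 8.5% and 6.2%. The GC box GGGCGG was in 63.4% and 64.0%, and CACGTG, an E-box, in 11.3% and 10.0%, so neither set the open ribosomal protein promoters apart. These are shares of promoters that hold the letters, with no test, and no factor's binding was measured. Among the 58 members that hold a start, the 31 with CCGGAA had a median of 233 normalized signal per kb, against 206 for the 27 without it. The gap was wider for the GC box, at 241 for 36 with it and 200 for 22 without. For the pyrimidine run it was 233 for 27 with it and 213 for 31 without, so CCGGAA did not stand out.

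Total deposited signal per library was 14683769 to 28748205. The share of it in tested regions was 29.4% and 25.5% in the Npm1 LT-HSC libraries and 31.8% to 63.1% in the other 12 libraries. The members held 0.0723% and 0.0574% of the signal in Npm1 LT-HSCs, against 0.221% and 0.142% in WT LT-HSCs. The deposited values appear to be scaled, and the read depth behind them is unknown. Summed normalized signal near 8 MPP3 marker genes was 2548 to 4409 in MPP3 and 1071 to 2708 in LT-HSC libraries, and near 8 LT-HSC marker genes 1803 to 2473 in MPP3 and 2001 to 3222 in LT-HSC libraries, so the populations overlapped in both lists. Near lymphoid genes the sum was 616 to 847 in MPP3 and 667 to 1031 in LT-HSC libraries, near erythroid and megakaryocyte genes 1118 to 1668 and 1355 to 1884, and near mast cell and basophil genes 132 to 234 and 142 to 248. All these sums were over regions within 1 kb of gene ends with a mean of at least 20, which includes regions too low to be tested.

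Normalized signal is the deposited value divided by a library factor from the trimmed mean of M values (TMM) over tested regions, and differences are on the scale of log2(normalized signal + 4). Per kb, the members had a higher median than other gene ends. It was 199 normalized signal per kb, against 143 for the 16754 other gene-end regions and 94.9 for all tested regions. Between the quartiles of the members' mean signal the medians were closer, at 199 for members and 176 for other gene ends. The median was 230 for 29 regions of other translation genes and 179 for 96 regions of mitochondrial ribosomal protein genes. The highest member per kb was the start of Rps19, a small subunit protein, at 407 per kb, followed by Rps29, also of the small subunit, at 385 and by Rplp0 at 348. The lowest were regions at Rpl12 at 60.8, at Rpl35 at 60.2 and a downstream region at Rps14 at 50.3, none of which is known to hold a start. The 58 members that hold an annotated start had a median of 217 per kb, against 133 for the 59 others. Of the 117 members, 40 also lay within 1 kb of another protein-coding gene, so their signal cannot be assigned to 1 gene. Between-library spread was ordinary for the level: the median SD over 14 libraries was 0.51 log2 for members with a mean in the members' interquartile range and 0.47 for other gene ends in that range.

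**Figure D1:**
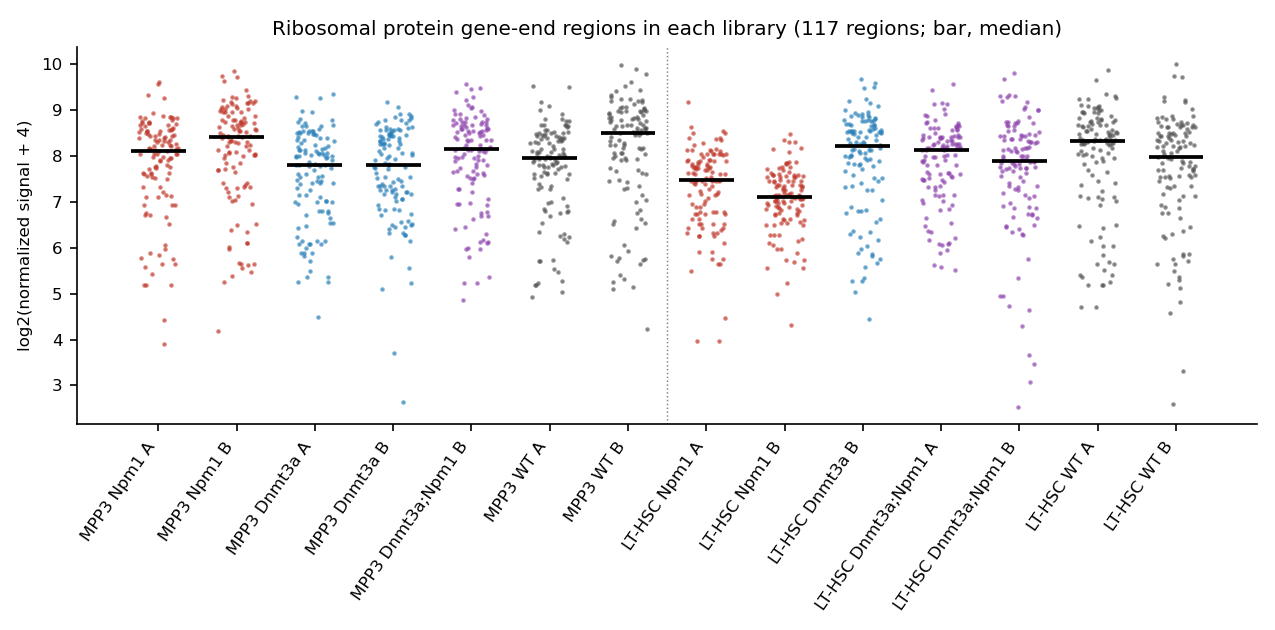
Each point is 1 of the 117 ribosomal protein regions in 1 library (y axis, log2 of normalized signal + 4; x axis, the 14 libraries by cell type and genotype), and the bar is the library's median. The medians of the Npm1 LT-HSC libraries, 7.47 and 7.11, are the lowest of the 14, and that of MPP3 WT library B, 8.496, is the highest.

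In Npm1 LT-HSCs the regions at ribosomal protein genes were mostly less accessible than in WT LT-HSCs. Limma called 15 of the 117 members at an adjusted p under 0.05, all lower, which is 12.8% of members against 4.52% of all tested regions called lower, 1.4% called higher and 5.91% called either way. Of the 16754 other gene-end regions, 1906 (11.4%) were called lower, a share close to that of the members. The difference was negative at 96 members, with a median of -0.86, against 0.01 for all tested regions and -0.49 for all other gene ends. At all 58 members that hold an annotated start the difference was negative, with a median of -1.07 and a range of -1.76 to -0.19, and 11 of these were called. Their median mean was 344. Other gene ends were negative at 3951 of 4430 with means of 200 to 400 and at 4070 of 4117 with means of 400 or more. Start regions of other genes are not given separately. An LT-HSC Npm1 library was the lowest of the 14 at 72 of 117 members (61.5%), against 53.7% of other gene ends between the members' quartiles of mean signal and 24.1% of all tested regions. Library B accounted for 57 of the 72 and library A for 15. All libraries of the Npm1 group lay below all of the WT group at 66.7% of members, against 28.6% of all tested regions, and above it at 7.69% of members, against 25.4%. No such share is given for gene ends of like mean. Their difference was negative at 4292 of 4909 between the members' quartiles.

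All 3 stalk regions had negative differences, with a median of -1.46, and 2 were called. They are too few to rank as a group, and their median mean was high, at 382. Other gene ends with means of 200 to 400 had a median of -0.70, with 10% called lower. Those with means of 400 or more had a median of -1.05, with 33.9% called lower. At Rplp2 (chr7:141446881-141448242), which forms a dimer with Rplp1, normalized signal was 72.8 and 188 in Npm1 LT-HSCs, against 421 and 349 in WT LT-HSCs. Dnmt3a LT-HSCs had 369 and Dnmt3a;Npm1 LT-HSCs 314 and 287. Only the Npm1 libraries were low there, and they did not overlap the WT ones (log2 difference -1.67, SE 0.41, limma adjusted p = 0.0244). The region also lies at an end of Pidd1. At Rplp0 (chr5:115558872-115560157), which anchors the stalk to the large subunit, the values were 255 and 160 in Npm1, 480 in Dnmt3a, 554 and 423 in Dnmt3a;Npm1, and 543 and 581 in WT LT-HSCs. The Npm1 libraries again stood below all others (-1.46, SE 0.35, limma adjusted p = 0.0227). Rplp1 had 223 and 138 in Npm1 LT-HSCs, against 305 and 454 in WT LT-HSCs, and did not pass the threshold (-1.07, limma adjusted p = 0.085).

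Of 42 small subunit regions, 6 (14.3%) were called lower, against 11.4% of other gene ends. The difference was negative at 37 of them, with a median of -0.92. Rps19, whose product is needed to mature the RNA of the small subunit, was the member with the highest signal per kb. Its start region (chr7:24883739-24885160) had 276 and 211 in Npm1 LT-HSCs, against 607 and 860 in WT LT-HSCs, with 724 in Dnmt3a and 554 and 509 in Dnmt3a;Npm1 LT-HSCs. The Npm1 libraries were below every other LT-HSC library (-1.56, SE 0.35, limma adjusted p = 0.0178). A second, weaker Rps19 region downstream had 49.7 and 92.8 in Npm1 and 132 and 54.2 in WT LT-HSCs, which overlap (-0.30, limma adjusted p = 0.771). The other small subunit calls were the paralogue gene Rps27l at -1.42, Rps18 at -1.32, Rps27a, which encodes a fusion with ubiquitin, at -1.26, Rps21 at -1.26 and Rps14 at -1.21, with limma adjusted p from 0.0317 to 0.0485. Rps14, known for its loss in a human myelodysplastic syndrome, had 190 and 140 in Npm1 LT-HSCs, against 431 and 341 in WT LT-HSCs. Its weaker downstream region went the other way, with 56.3 and 126 against 32.4 and 35.1 (1.23, limma adjusted p = 0.261). Rps6, a target of the S6 kinases, had 212 and 136 against 521 and 323 and did not pass the threshold (-1.25, limma adjusted p = 0.0536). Rpsa, which also has a role as a laminin receptor, had 209 and 150 against 259 and 360 (-0.77, limma adjusted p = 0.228).

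Of 72 large subunit regions, 7 (9.72%) were called lower, against 11.4% of other gene ends. The difference was negative at 56 of them, with a median of -0.78. Rpl15, a core protein of the large subunit, had the smallest p of all members. Its region (chr14:18270114-18271678), shared with Nkiras1, had 103 and 188 in Npm1 LT-HSCs, against 543 and 421 in WT LT-HSCs. Dnmt3a LT-HSCs had 510 and Dnmt3a;Npm1 LT-HSCs 305 and 402, and none of them overlapped the Npm1 libraries (Npm1 against WT -1.76, SE 0.37, limma adjusted p = 0.0146). Rpl41, which encodes a very short basic peptide, had 87.7 and 115 in Npm1 LT-HSCs, against 366 and 273 in WT LT-HSCs, at chr10:128548399-128549617 (-1.62, SE 0.38, limma adjusted p = 0.0212). Rpl13a, whose introns host small nucleolar RNAs, had 217 and 182 against 632 and 423 at its start (-1.36, SE 0.35, limma adjusted p = 0.0295). Rpl36al, a paralogue of Rpl36a, had 394 and 281 against 807 and 1021 (-1.44, SE 0.32, limma adjusted p = 0.0188). Rpl7l1, a paralogue of Rpl7, had 126 and 174 against 421 and 395 (-1.44, SE 0.38, limma adjusted p = 0.0306). The remaining calls were Rpl36 at -1.45 and Rpl23a at -1.36. Of the 15 called regions 8 are shared with another gene: beside Rplp2 and Rpl15, these are Rpl41 with Zc3h10, Rpl36al with Mgat2, Rpl36 with Lonp1, Rps18 with Vps52, Rps21 with Cables2 and Rps27a with Clhc1.

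**Figure D2:**
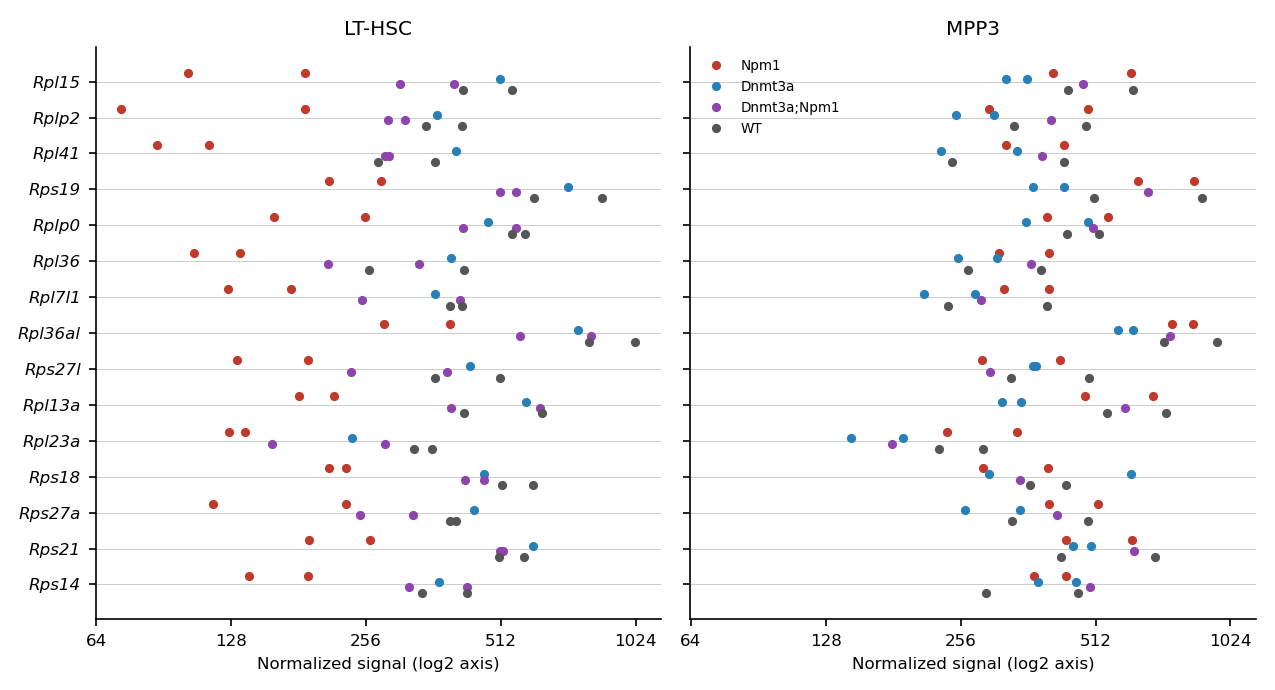
Normalized signal (x axis, log2 scale) at the 15 ribosomal protein regions called lower in Npm1 than in WT LT-HSCs, 1 row per region, with LT-HSC libraries on the left and MPP3 libraries on the right; each point is 1 library, coloured by genotype. In LT-HSCs both Npm1 libraries lie below both WT libraries in every row (at Rpl15 103 and 188 against 543 and 421), and in MPP3 the Npm1 and WT libraries overlap in every row (411 and 613 against 444 and 620 at Rpl15).

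The 21 genes mutated in Diamond-Blackfan anaemia had 29 regions, of which those of Rps19 and Rpl15 were called lower. That is 6.9%, against 11.4% of other gene ends. The difference was negative at 23 of the 29, with a median of -0.83. Rpl5 and Rpl11, whose products bind Mdm2 together with the small RNA of the large subunit, had overlapping values in Npm1 and WT LT-HSCs. Rpl5 had 171 and 154 in Npm1 LT-HSCs, against 359 and 154 in WT LT-HSCs (-0.53, limma adjusted p = 0.477). Rpl11 had 197 and 227 against 395 and 225 (-0.49, limma adjusted p = 0.523). Of the paralogue genes listed, 5 had a region, and 3 of their 7 regions were called lower (Rpl36al, Rpl7l1 and Rps27l), while Rpl22l1 was at -1.09 (limma adjusted p = 0.061). These 7 regions had a median mean of 397. Of other gene ends, 10% were called lower at means of 200 to 400 and 33.9% at 400 or more. Start regions of Rps24, Rps26, Rps7, Rps10, Rpl35a, Rpl13, Rpl22, Rpl38, Rps27 and Rpl10 had differences of -1.24 to -0.77, none past the threshold. The Rpl3 regions, at a core protein gene of the large subunit, went opposite ways, at -1.06 (limma adjusted p = 0.188) and 0.39, and those of Rpl3l were at -0.57 and 0.58.

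Members with low signal did not follow the rest. Of 16 members with a mean under 100, 12 had positive differences, with a median of 0.85, and none was called. Other gene ends with means under 100 were also mostly positive, at 3264 of 4648, with a median of 0.46. The highest difference among members was at a downstream Rpl10 region shared with Dnase1l1 (chrX:74273522-74274522), with 64.6 and 101 in Npm1 LT-HSCs, against 47.5 and 2.01 in WT LT-HSCs (2.27, SE 0.75, limma adjusted p = 0.0723). The start region of Rpl10, a late-joining protein of the large subunit, had 232 and 162 against 403 and 419 and a difference of the other sign (-1.07, limma adjusted p = 0.0923). A low Rpl23 region was at 1.62 (limma adjusted p = 0.159). Among members with higher means, an Rpl12 region was at 1.15 (limma adjusted p = 0.113). None of these 3 positive regions is known to hold a start.

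**Figure D3:**
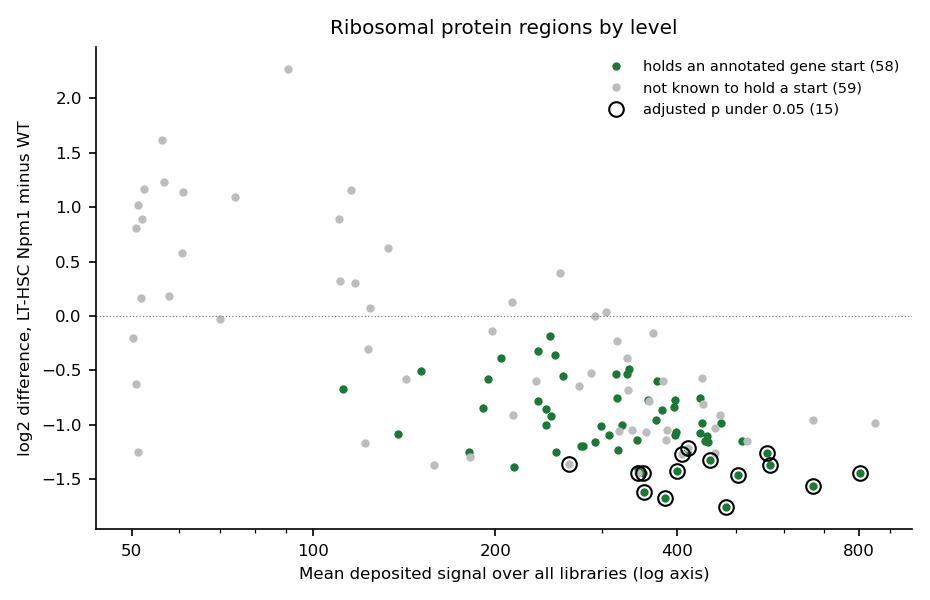
Each point is 1 of the 117 ribosomal protein regions, by its mean deposited signal over the 14 libraries (x axis, log scale) and its log2 difference between Npm1 and WT LT-HSCs (y axis); green points hold an annotated gene start and ringed points are the 15 with a limma adjusted p under 0.05. All 58 green points lie below 0, and 12 of the 21 positive differences are at means under 100. Other gene ends, not drawn, were negative at 3951 of 4430 with means of 200 to 400 and at 4070 of 4117 with means of 400 or more.

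The difference followed the level of a region at other gene ends too, so members were set beside gene ends of like mean. In the range between the 10th and 90th percentile of the members' means, 60.7 to 466, the median was -0.84 for 93 members and -0.38 for 12074 other gene ends. That range holds many low regions, with a median mean of 179 for the other gene ends and 308 for the members. Between the members' quartiles, 181 to 397, a range chosen after seeing this, the medians were -0.84 for 59 members and -0.67 for 4909 other gene ends. In the wider range 9 of 93 members and 713 of 12074 other gene ends were called lower. Between the quartiles 5 of 59 members and 452 of 4909 other gene ends were called lower. At means of 400 or more the medians were -1.15 and -1.05, with 10 of 27 members and 1396 of 4117 other gene ends called lower, and at means of 200 to 400 they were -0.86 and -0.70, with 5 of 56 and 445 of 4430. At means of 100 to 200 the medians were further apart, at -0.54 and -0.15, with 0 of 18 and 61 of 3559 called lower. The shares called were close at means of 200 and more, and in the wider range that of the members was higher. Related genes outside the family gave similar values. The 29 regions of 20 other translation genes had a median of -0.93 with 3 called lower, at Pabpc1, the poly(A)-binding protein gene, at Eif3e, an initiation factor gene, and at a region shared by Hnrnpa1 and Cbx5. The 96 regions of mitochondrial ribosomal protein genes had a median of -0.80 with 10 called lower.

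**Figure D4:**
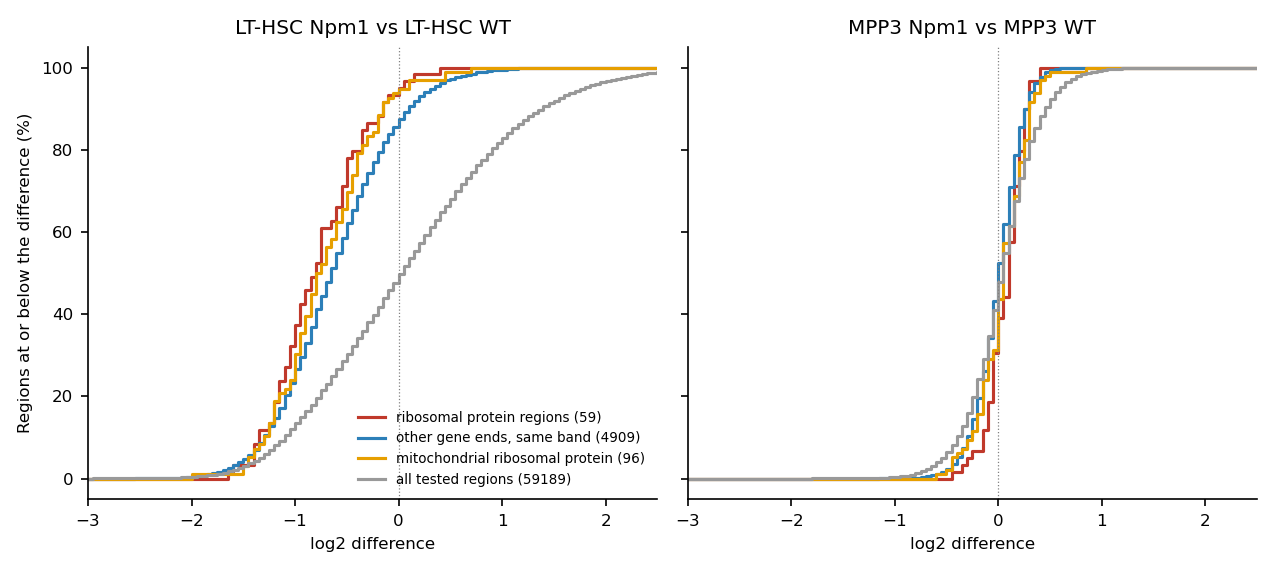
Share of regions (y axis, percent) at or below a given log2 difference (x axis) between Npm1 and WT, in LT-HSCs on the left and in MPP3 on the right, for the 59 ribosomal protein regions and 4909 other gene ends with means between the members' quartiles, for 96 mitochondrial ribosomal protein regions and for all 59189 tested regions. In LT-HSCs the gene-end curves lie left of all regions (medians -0.84, -0.67 and -0.80 against 0.01), and in MPP3 all curves cross near 0.

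Library properties moved with this comparison. The share of signal in tested regions was 29.4% and 25.5% in Npm1, against 56.6% and 40.7% in WT LT-HSCs. With that share as a covariate, limma called none of the members and none of all regions, with 11 members at an unadjusted p under 0.05, and the median was -0.43. With cyclic loess, which evens out differences that depend on level, none was called (12 unadjusted) and the median was -0.24. With TMM factors from gene ends alone, 3 were called and the median was -0.37, while all regions then had a median of 0.48. With library totals, 59 were called and the median was -1.46, with all regions at -0.57. The count also rested on single libraries: it was 1 without WT library A, 1 without WT library B and 2 without Npm1 library B, but 28 and 27 without MPP3 Dnmt3a library A or B, which enter only through the shared spread. The 1 region called without WT library A was higher, not lower. Marker genes moved as well, in sums that include regions too low to be tested. Other gene ends with means under 100 had a median of 0.46 in this comparison, and marker regions were not set beside gene ends of like mean. The summed signal near all 8 MPP3 marker genes was 2708 and 2637 in Npm1, against 1346 and 1864 in WT LT-HSCs, that near 8 LT-HSC marker genes 2001 and 2054 against 2925 and 2931, and that near 4 niche genes 780 and 630.0 against 310.0 and 585. Near erythroid and megakaryocyte genes (5 of 6 with a region) it was 1425 and 1355 against 1787 and 1799, also without overlap, while the lymphoid and the mast cell and basophil sums overlapped. The part of these properties in the result was not tested, and with bulk libraries fewer open cells and less open DNA per cell cannot be told apart.

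**Figure D5:**
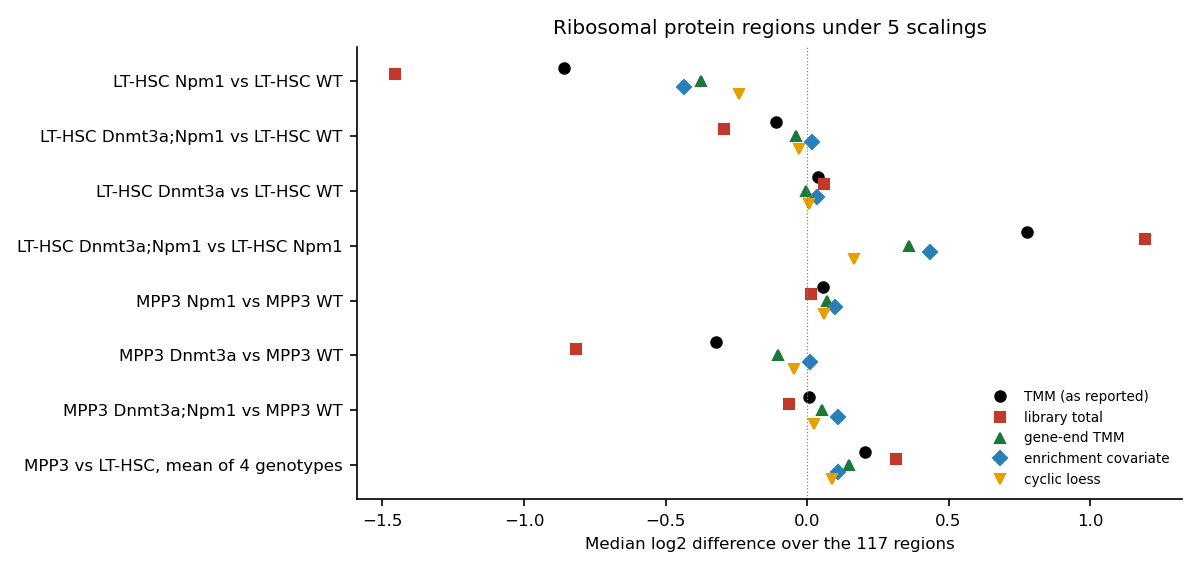
Median log2 difference over the 117 ribosomal protein regions (x axis) in 8 comparisons (rows) under 5 scalings, each a marker. For Npm1 against WT LT-HSCs the medians run from -1.46 (library total) to -0.24 (cyclic loess), all negative, and for Dnmt3a against WT in MPP3 they run from -0.82 to 0.01.

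Members in Dnmt3a;Npm1 LT-HSCs lay closer to WT than those in Npm1 LT-HSCs did. In Dnmt3a;Npm1 against WT LT-HSCs, limma called none of the members, with 6 at an unadjusted p under 0.05 and 0.00338% of all regions called (0.00169% in each direction), and the median was -0.11. In a direct comparison of Dnmt3a;Npm1 with Npm1 LT-HSCs, which shares the Npm1 libraries with the comparison above, 101 members were higher and 1 was called, the Rpl41 start region, against 1.5% of all regions called higher and 1.7% called either way. Dnmt3a;Npm1 libraries lay above both Npm1 libraries at 65.0% of members, against 26.3% of all regions, with no share given for gene ends of like mean. The Rpl41 start region had 288 and 283 in Dnmt3a;Npm1, against 87.7 and 115 in Npm1 LT-HSCs (1.47, SE 0.38, limma adjusted p = 0.048). The call is lost under cyclic loess and with the share of signal in tested regions as a covariate, and leaving out 1 library at a time gave 0 to 7 calls. Rps3a1 (402 and 617 against 202 and 172) and Rpl13a (397 and 627 against 217 and 182) came next and did not pass, with limma adjusted p of 0.0517 and 0.0545. The members' median was 0.78, and between the members' quartiles it was 0.71 for members and 0.57 for other gene ends. In that range 55 of 59 members and 4108 of 4909 other gene ends were higher. The lone Dnmt3a LT-HSC library, assumed to vary like the other groups, had a median of 0.04 against WT LT-HSCs, with no member called by limma (1 unadjusted, 0% of all regions called).

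No difference between Npm1 and WT was detected at the members in MPP3. In Npm1 against WT MPP3, limma called none of the members, with 0 at an unadjusted p under 0.05 and 0% of all regions called, and the median was 0.06. Rpl15 had 411 and 613 in Npm1 MPP3, against 444 and 620 in WT MPP3 (-0.06), and Rplp2 had 295 and 493 against 337 and 487 (-0.08). The values of both genotypes overlapped at these genes. The test of the difference between the Npm1 effects in the 2 cell types called none of the members (39 unadjusted, 0% of all regions called). Its median was -0.88 over members and -0.66 over other gene ends between the members' quartiles, and its smallest limma adjusted p was 0.315, at Rps19 (-1.69, SE 0.49), Rpl41 (-1.81, SE 0.53) and Rpl15 (-1.69, SE 0.52). The Npm1 effect is therefore not shown to differ between LT-HSC and MPP3 at any member.

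In Dnmt3a against WT MPP3 the difference was negative at 92 of 117 members, with a median of -0.32. This direction depended on the processing: the median was -0.047 with cyclic loess and 0.012 with the share of signal in tested regions as a covariate. Leaving out 1 library gave medians from -0.55 to -0.11, the last without WT library B. Limma called none, with 15 at an unadjusted p under 0.05 and 0% of all regions called. Between the members' quartiles the median was -0.38 for members and -0.31 for other gene ends. In that range the difference was negative at 52 of 59 members and at 3729 of 4909 other gene ends. Rpl36a, a large subunit protein gene on the X chromosome, had the smallest p, with 101 and 75.5 in Dnmt3a, against 228 and 266 in WT MPP3 (-1.46, SE 0.39, limma adjusted p = 0.311). Rps23 had 220.0 and 133 against 342 and 444, and Rpl18 had 124 and 273 against 405 and 454. The genotypes did not overlap at these 3 regions. Both Dnmt3a libraries lay below both WT libraries at 30.8% of members, against 19.7% of all regions, and above them at 9.4%, against 19.4%. These shares are not given for gene ends of like mean. In the lone Dnmt3a;Npm1 MPP3 library, against WT MPP3, the median was 0.01, with no member called by limma (0 unadjusted, 0% of all regions called).

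No member passed the threshold between the cell types. Over the mean of 4 genotypes, signal in MPP3 against LT-HSC was higher at 92 of 117 members, with a median of 0.20. Between the members' quartiles the median was 0.17 for members and 0.09 for other gene ends, and at means of 400 or more 0.24 and 0.20. Limma called none (12 unadjusted), against 0.139% of all regions called, 0.112% higher and 0.027% lower. No member separated all MPP3 from all LT-HSC libraries, against 0.441% of all regions with MPP3 above and 0.211% with MPP3 below. Rpl22, a large subunit protein gene known for its loss in human leukaemia, had the smallest p. Its start region (chr4:152325408-152326548) had 264 to 518 with a median of 401 in MPP3, against 132 to 373 with a median of 209.6 in LT-HSC libraries (0.69, SE 0.21, limma adjusted p = 0.175). Rpl3l, a muscle paralogue of Rpl3 whose region is shared with Msrb1, followed at 0.62, and Rpl21 at 0.57. Without the Npm1 genotype in both cell types, a choice made after seeing the data, the members' median was -0.02.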

How the data were processed

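The deposited table gives, for 705361 regions on build mm10, 1 signal value per library. The deposited values are whole numbers, but low values skip whole numbers at a library-specific step, as counts scaled by 1 factor per library and rounded would. No source states this scaling. They were therefore not taken as read counts, and no count model was used. Of the aligner, peak caller and rule for the region set, none is given in the sources used here. HOMER 4.10, R 3.6.0, edgeR 3.26.4 and DiffBind 2.12.0 are named, with no role, in the submitters' processing notes. All 14 columns were used. 1 library's title lacks the cell type, and its characteristics give MPP3.

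Regions with a mean of at least 50 (59189) were tested. TMM factors were computed over them, and limma 3.58.1 (R 4.3.3, robust trended prior, two-sided) was fitted to log2(normalized signal + 4) in 1 design of 8 groups, with Benjamini-Hochberg adjustment over all tested regions and a call at an adjusted p under 0.05. This scale understates changes at low regions. On simulated data the fit recovered only part of the changed regions, and none at the smaller effect under 1 of the noise settings. The effect and noise of that simulation were altered after a first version had recovered none. A comparison with no called member therefore does not show that members were alike. A total of 9 comparisons and 27 alternative settings were run, 14 of them leaving out 1 library, and 2 were added after seeing the data, as was the interquartile range of like gene ends. The settings had been explored before the final scripts were written, and the fit was kept as first planned. RefSeq gene bounds and promoter sequences are of GRCm38.p6.

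The members, lists and named genes were chosen with earlier results of these data known. Named genes are a fixed list of disease, stalk, Mdm2-binding and paralogue genes, the called members with the smallest p (up to 8 per direction, or the 3 of smallest p where fewer than 3 were called), the 3 highest and 3 lowest per kb, and those next to the threshold. Called members beyond these are named with their values. Results at a few members are not reported here.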

Additional observations from a re-analysis of the deposited data

How the results depend on the processing

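For Npm1 against WT in LT-HSCs (15 calls, median -0.86), the median stayed negative under every alternative run. Calls and medians were 4 and -0.44 at a mean of at least 100, where 3 of the 4 were lower, 7 and -1.65 at 20, 59 and -1.46 with library totals, 0 and -0.24 with cyclic loess, 3 and -0.37 with TMM over gene ends, and 0 and -0.43 with the share of signal in tested regions as covariate. Without regions shared with another gene 7 were called. Leaving out 1 library gave 1 to 28 calls and medians of -1.02 to -0.62. For Dnmt3a;Npm1 against Npm1 (1 call, median 0.78), the same 6 settings gave 0 and 0.35, 0 and 1.34, 3 and 1.19, 0 and 0.17, 0 and 0.36, and 0 and 0.43. Calls were 0 at a pseudocount of 1, 3 at 16, 0 with 1 region per gene and 0 without shared regions, and 0 to 7 (medians 0.50 to 0.87) leaving out 1 library. For the difference of the Npm1 effects between cell types (median -0.88) those settings gave medians of -0.46, -1.58, -1.44, -0.21, -0.41 and -0.52. For Dnmt3a against WT in MPP3 (median -0.32) the median was -0.89 at 20, -0.82 with totals, -0.047 with loess and 0.012 with the covariate, with 0 to 2 calls leaving out 1 library. For MPP3 against LT-HSC (0.20) it was 0.34 at 20, -0.021 without the Npm1 genotype, and 0.14 to 0.39 leaving out 1 library. Npm1 against WT in MPP3 gave -0.18 to 0.28 leaving out 1 library, and Dnmt3a;Npm1 against WT in LT-HSCs 0 to 1 calls. A replicate block on the letters A and B gave 12 calls for Npm1 against WT and 0 for Dnmt3a;Npm1 against Npm1. The A minus B differences of the 6 groups with 2 libraries were correlated between groups. The correlations ran from -0.30 (WT LT-HSC with WT MPP3) to 0.43 (Npm1 MPP3 with WT MPP3), with a median of -0.02 over 15 pairs of groups. No pairing by letter common to all groups was seen, and a pairing within some of them was not tested. Of the regions named but not called, 1 changed sign: an Rpl4 region, 0.50 in Npm1 against WT MPP3, was at -0.14 without MPP3 WT library A. The causes were not tested. The read depth is unknown, so counting error cannot be stated.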
